A study of Mus musculus with 2 samples.

Results

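Chn1 encodes α-chimaerin, a neuronal GTPase-activating protein that switches off the small GTPase Rac. Its reads were taken from a pair of iCLIP libraries made from the cytoplasm of mouse forebrain neurons in culture. iCLIP joins a protein to the RNA it touches with ultraviolet light, precipitates the protein, and reads the contact from the base at which reverse transcription stopped. The anti-Rbfox1 library was precipitated with antibodies against Rbfox1 and the anti-Flag library, the control, with antibodies against the Flag epitope, with 1 library each. Both came from forebrain cultures kept for 14 days in vitro, irradiated at 254 nm with 500 mJ/cm2 on ice and opened for 1 min in 0.1% Triton X-100 with 150 mM NaCl. The sources used here do not give the genotype or strain of the mice, or how many animals went into a culture. Neither library has a replicate, so intervals cover counting error only and no difference has a replicate check. The reads carry positions and no gene names, so markers of neurons or of other cells were not examined.

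Members were the reads that lay wholly inside chromosome 2, 73447500 to 73615000 (mm9, minus strand), the interval taken for Chn1. These were 411 of the 64820 anti-Rbfox1 reads, in 9 of 10134 clusters, and 0 of the 569 anti-Flag reads, in 0 of 233 clusters. A cluster here is a run of reads whose crosslink positions follow each other within 20 nt on the same strand, and a stretch is a run of clusters whose outer bases lie within 1000 nt. The gene was chosen because of its deep stretch in these libraries. Its depth is therefore given as a description and no test was made on it. No annotation of the mm9 build was used, so exons, introns and untranslated regions were not assigned to the reads, and Chn1 is named from the interval alone.

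Chimaerins bind the lipid second messenger diacylglycerol through their C1 domain and accelerate GTP hydrolysis by Rac through their GAP domain. Rac drives the growth of actin networks, and α-chimaerin is known for limiting this in dendrites and spines, and in growing axons downstream of ephrin receptors. The longer isoform, α2-chimaerin, carries an SH2 domain that the shorter α1-chimaerin lacks, and changes in human CHN1 are known to cause an eye movement disorder, Duane retraction syndrome. Rbfox1 belongs to a family of RNA-binding proteins that recognise the letters (U)GCAUG, regulate splicing in the nucleus, and also bind 3′ untranslated regions (3′ UTRs) in the cytoplasm.

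The annotation at hand was GENCODE M21, on the later GRCm38 build. It lists a Chn1 mRNA for a protein of 459 residues (Chn1-203) and a shorter one for 334 residues (Chn1-202), and both end in a long 3′ UTR, of 2365 and 2280 nt. The motif was searched on the transcript strand as TGCATG and as GCATG, which lies within it, and its reverse complements CATGCA and CATGC served as a check on composition. The 3′ UTR of Chn1-203 held 3 GCATG, of which 1 was a TGCATG, against 4 CATGC and 1 CATGCA. At sites 2 and 3 below the motif is followed by a C, so the same bases also read as CATGC. At site 3 they read on as CATGCA. The counts of the motif and of its reverse complement are therefore not independent. The sites are shown because they are the letters Rbfox proteins are known to recognise, each in a window of 30 bases from the transcript strand with the motif in capitals. They stand 5′ to 3′, with the first base of the motif at base 242, 341 and 644 of the 3′ UTR, counted from the base after the stop codon:
site 1, chr2:73612766-73612795 (GRCm38, minus strand): aactcaagctacTGCATGattacccctttt
site 2, chr2:73612667-73612696 (GRCm38, minus strand): ggttgtcacccaGCATGcttcccagagtaa
site 3, chr2:73612364-73612393 (GRCm38, minus strand): tatttttacctgGCATGcagttattaattt

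All 3 windows were present in 3 of the 3 annotated Chn1 mRNAs with a long 3′ UTR. The coding part of Chn1-203 held 1 GCATG and that of Chn1-202 held 0, while the 5′ UTR of Chn1-202 held 2 and that of Chn1-203 held 0. Such letters are common. Of 4262 mouse genes with a 3′ UTR of at least 2365 nt, 55.4% had a TGCATG in its first 2365 nt, 88.8% had a GCATG, and 41.8% had at least as many GCATG as Chn1. A CATGC was present in 89.5%. The reads are on mm9 and the sites on GRCm38, positions were not converted between builds, and whether any read of the deep stretch lay on a site was not examined.

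The anti-Rbfox1 signal of Chn1 sat almost wholly in a single place. The stretch from chr2:73450464-73451088 (mm9, minus strand) spanned 625 nt, or 0.373% of the interval, and held 395 of the 411 reads (96.1%, exact 95% interval 93.8 to 97.8). These reads stood at 199 of the 214 crosslink positions of the gene. The stretch held 632 reads per kb and the rest of the interval 0.0959 reads per kb. Chn1 made up 0.634% of the anti-Rbfox1 library (0.574 to 0.698) and the stretch alone 0.609% (0.551 to 0.672).

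**Figure D1:**
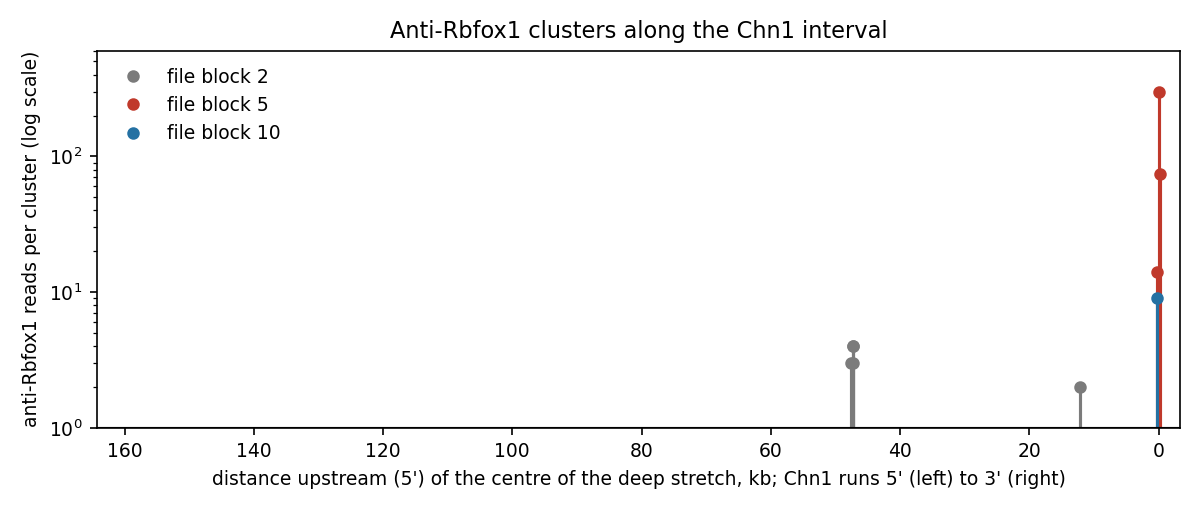
Anti-Rbfox1 reads per cluster (log scale) against the distance in kb upstream of the centre of the deep stretch, with the 5′ end of the Chn1 interval on the left and colours for the blocks of file lines. Of the 9 clusters, 4 stand together at the right edge and hold 395 reads, and the other 5 hold 16.

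In the anti-Flag library Chn1 had 0 reads on either strand. A count of 0 in 569 reads allows a share of up to 0.527% by the limit of 3 counts, and the exact 95% interval reaches 0.646%. At an equal share of both libraries 3.61 control reads would fall in Chn1. These limits fall on either side of the anti-Rbfox1 share of 0.634%, the first below it and the second above it, so the control is too small to say whether the shares differ. The nearest anti-Flag reads on chromosome 2 lay on the plus strand from 54399015 to 54399045, far outside the gene. The opposite strand of the interval had 0 anti-Rbfox1 reads, which allows up to 0.730% of the number on the Chn1 strand.

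Along the transcript, from 5′ to 3′, the first 116.7 kb of the interval had no anti-Rbfox1 read. Then came 4 shallow clusters with 14 reads at 13 crosslink positions within 367 nt, from 73497980 to 73498346. Their depths were 3, 4, 3 and 4 reads, and they lay 46.9 kb upstream of the deep stretch. A single cluster of 2 reads, from 73462940 to 73462973, lay 11.9 kb upstream of it. The last 2.96 kb of the interval, downstream of the stretch, had no read. Outside the interval and on the same strand, 16 reads lay within 100 kb of its 5′ border and 2 within 100 kb of its 3′ border, so the borders split no dense signal.

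Depth differed widely among the 9 clusters. Of these, 3 had at least 10 reads, while 12.3% of all anti-Rbfox1 clusters reached that depth. The gene was chosen for depth, so nothing is read from this count. The other 6 clusters held 2 to 9 reads.

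Within the deep stretch, reads fell into 4 neighbouring clusters of very unequal depth. The first, from 73451030 to 73451088, held 9 reads at 5 crosslink positions, of which 4 shared the position 73451085. A gap of 16 nt without reads separated it from the next, from 73450946 to 73451013, with 14 reads at 12 positions. After a further gap of 41 nt came the highest cluster, from 73450560 to 73450904, with 298 reads at 143 positions. The last, from 73450464 to 73450607, held 74 reads at 39 positions, and its reads overlapped those of the highest cluster by 48 nt. The highest cluster alone held 72.5% of the Chn1 reads (exact 95% interval 67.9 to 76.8) and 75.4% of those in the stretch (70.9 to 79.6). This share rests on the joining distance and on the reads counted, since the highest cluster held 46.2% of the Chn1 reads when crosslinks were joined within 10 nt and 40% with 1 read kept per leftmost base and strand.

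**Figure D2:**
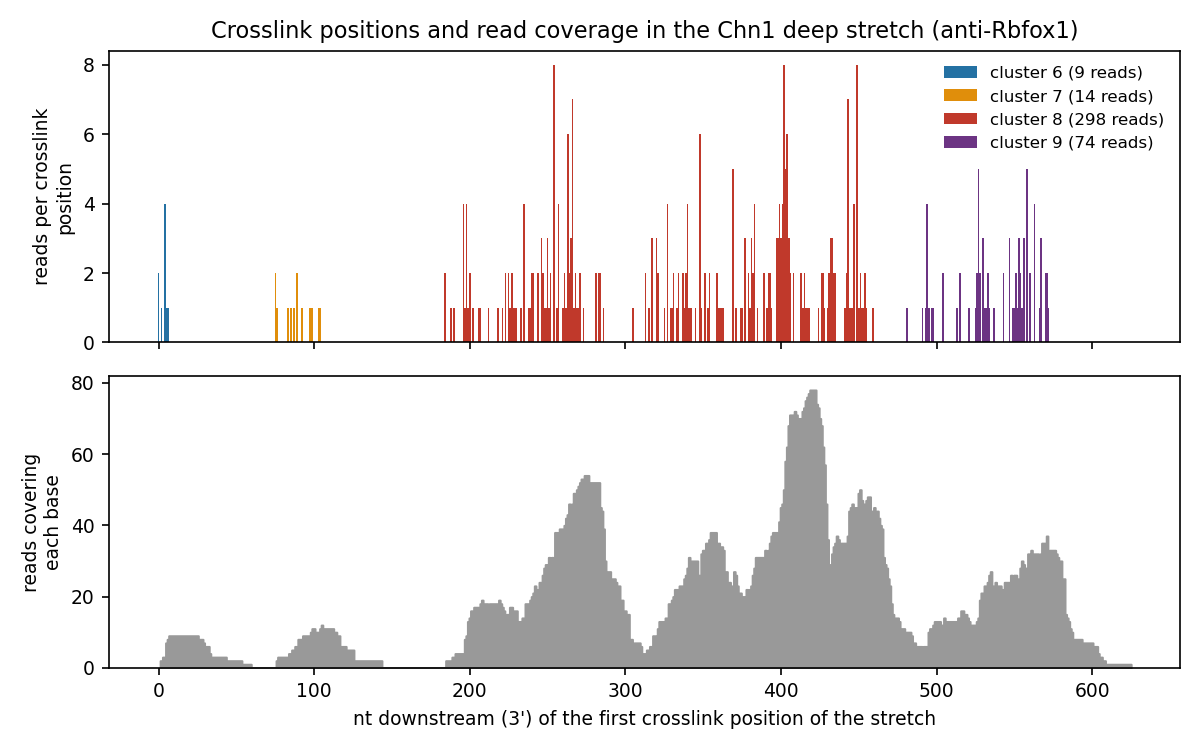
Reads per crosslink position (top, coloured by cluster) and reads covering each base (bottom) against the distance in nt downstream of the first crosslink position of the stretch, 5′ to 3′ from left to right. Coverage rises in 6 peaks, highest at 78 reads, and no crosslink position has more than 8 reads.

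Reads of the stretch stood at many crosslink positions. No pair of deposited reads shared start, end and strand, so reads at 1 position cannot outnumber the different 3′ ends there. Depth per position therefore cannot show how strongly any 1 base stood out. No crosslink position had more than 8 reads, a number that 3 positions reached, 73450640, 73450687 and 73450835. Of the 199 positions in the stretch, 99 had a single read (49.7%), and the 10 fullest held 66 reads (16.7%). It took 51 positions to hold 50% of the reads. In the highest cluster 51.8% of the bases between its first and last crosslink carried at least 1 crosslink.

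Read coverage showed that the highest cluster was not a single hump. Counting maxima that rose at least 10 reads above the dips around them, the stretch had 6, of which 4 lay inside the highest cluster. From 5′ to 3′ their positions were 73450984 with 12 reads, 73450814 with 54, 73450733 with 38, 73450669 with 78, 73450638 with 50 and 73450518 with 37. Coverage dropped to 4 reads after the maximum of 54 reads and to 5 before the last maximum. The dip between the maxima of 78 and 50 reads was shallow, at 28 reads, and these maxima lay 31 nt apart. Joining crosslinks only within 10 nt split the highest cluster at the deep dip, into 108 reads upstream and 190 downstream. Divided into 4 equal parts of 69 nt, from 5′ to 3′, the highest cluster had 58, 62, 68 and 110 reads, and the part at its 3′ side was the fullest.

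Read ends varied on both sides, which is partly fixed by the file. No pair of reads shared start, end and strand, so reads with the same crosslink position must differ in 3′ end, and the reverse. The 395 reads of the stretch began at 199 crosslink positions and stopped at 179 different 3′ ends, of which the most used had 12 reads. Their length ranged from 15 to 75 nt, with a median of 28 nt and quartiles of 23 and 36 nt. The other anti-Rbfox1 clusters of at least 100 reads, with 7708 reads, had the same median and quartiles. The whole library had a median of 28 nt with quartiles of 23 and 35 nt. Reads under 20 nt were 9.62% of the stretch (6.90 to 13.0) and 9.86% of the library (9.63 to 10.1). Length was not used to choose the gene, and on this measure the Chn1 reads could not be set apart from the rest of the library within counting error.

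**Figure D3:**
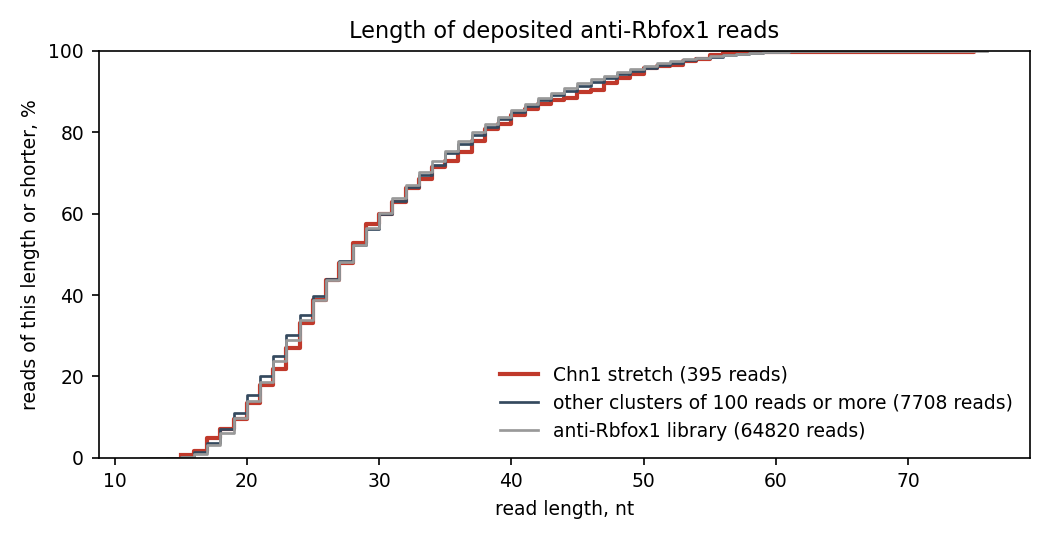
Cumulative share of reads (percent) by read length (nt) for the Chn1 stretch, for the other anti-Rbfox1 clusters of at least 100 reads and for the whole anti-Rbfox1 library. The 3 curves lie close together, each with a median of 28 nt.

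Among all 7297 anti-Rbfox1 stretches, the Chn1 stretch was the 8th by reads and the 10th by crosslink positions. Its highest cluster was the 2nd of 10134 by reads and the 3rd by positions. Set beside the other 9 of the 10 highest clusters, it was the longest, with 345 nt against 163 to 306 nt. Its fullest position held 2.68% of its reads, against 2.26% to 8.56% in the other 9, and it had 48.0 positions per 100 reads, against 34.2 to 58.9. The Chn1 cluster therefore lay within their range on these measures of spread and outside it in length. In all 10 clusters the reads at a position were capped, since no pair shared start, end and strand. These measures therefore describe the deposited reads only. Both the length and the rank depend on the joining distance. Joined within 10 nt, the largest Chn1 cluster held 190 reads and was the 10th of 12769. These are values of 1 library for clusters chosen by depth, with no test.

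The 6 stretches next in read count, 3 with more reads and 3 with fewer, gave a closer comparison. Chn1 had 395 reads in 4 clusters over 625 nt, against 338 to 524 reads in 4 to 9 clusters over 549 to 2393 nt in the other 6. The highest cluster held 75.4% of the reads in Chn1 and 29.7% to 72.5% in the other 6. That order holds at the joining distance of 20 nt only among the settings tried. Joined within 10 nt, the highest cluster held 48.1% in Chn1 and 29.7% to 72.5% in the other 6, of which 3 lay above Chn1. Joined within 50 nt it held 94.2% in Chn1 and 29.7% to 95.9% in the others, with 1 above Chn1. With 1 read per leftmost base it held 43.6% and 25.2% to 67.2%, with 3 above. These 3 were all on the plus strand, where the leftmost base is the 5′ end of a read, next to the crosslink position. In Chn1, on the minus strand, it is the 3′ end, so this setting does not thin the reads alike. Joined within 20 nt, those nearest to Chn1 in this share were a stretch on the plus strand of chromosome 12 (101447311 to 101448002), with 72.5%, and one on the plus strand of chromosome 13 (54481117 to 54483509), with 70.5%. Chn1 had 63.2 reads per 100 nt, against 15.7 to 95.4. The densest was on the plus strand of chromosome 11 (17099829 to 17100377). Control reads numbered 0 in the Chn1 stretch, 3 in that on chromosome 11, 2 in that on chromosome 13 and 0 in the remaining 4.

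**Figure D4:**
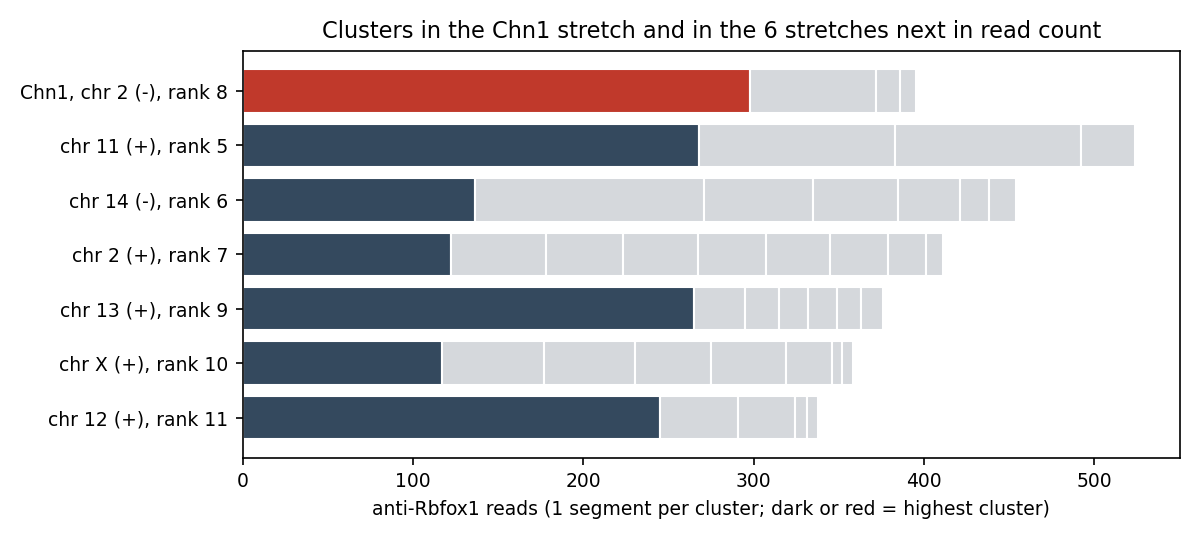
Anti-Rbfox1 reads (horizontal axis) in the Chn1 stretch and in the 6 stretches next in read count, with 1 segment for each cluster and the highest cluster in red or dark blue. With crosslinks joined within 20 nt, the highest cluster takes 75.4% of the Chn1 bar and 29.7% to 72.5% of the others.

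Over the 114 stretches of at least 100 reads, with crosslinks joined within 20 nt, Chn1 stood 9th both in reads per 100 nt and in the share held by the highest cluster. It had 63.2 reads per 100 nt and 75.4%, against medians over the 114 of 16.8 reads per 100 nt and 45.5%.

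**Figure D5:**
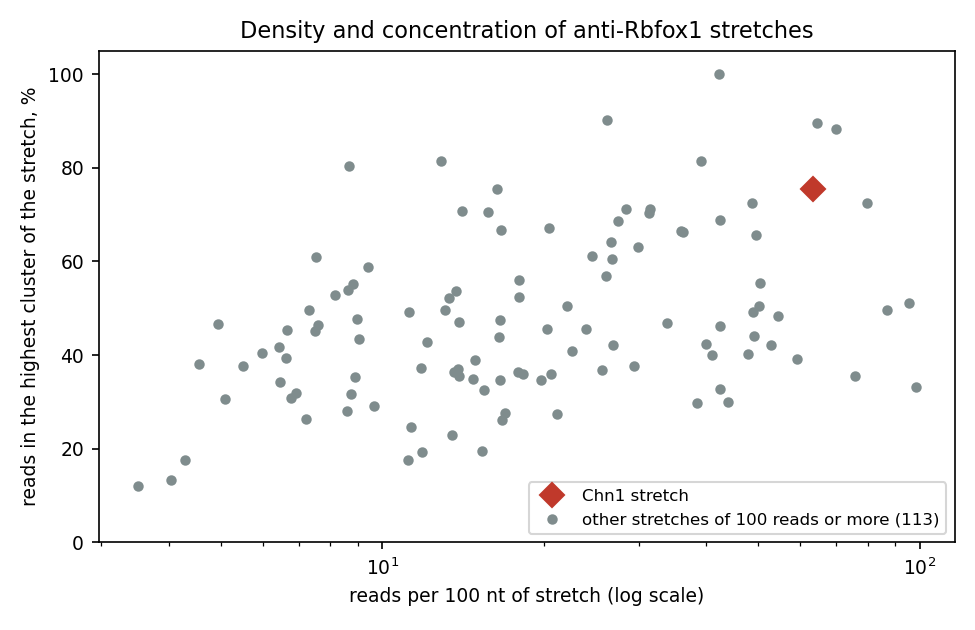
Share of reads in the highest cluster (percent) against reads per 100 nt (log scale) for the 114 anti-Rbfox1 stretches of at least 100 reads, 1 point each. Chn1 (red) lies at 63.2 reads per 100 nt and 75.4%, in the upper right of the cloud.

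In the deposited file, Chn1 reads stood apart from most others. The lines of the anti-Rbfox1 file run through the chromosomes in order more than once and so form 11 blocks, whose meaning the sources used here do not state. Chn1 reads fell into the blocks numbered 2, 5 and 10 in file order, and each of these was small. Chn1 made up 16 of the 23 reads of block 2, 386 of the 405 reads of block 5, and all 9 reads of block 10. The largest blocks, 1 and 4, with 10007 and 48064 reads, held no Chn1 read. Of the 6 stretches next in read count, all had their reads in block 4.

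The blocks followed position within the gene. The 5 shallow upstream clusters were in block 2, the first cluster of the deep stretch was in block 10, and the other 3 were in block 5. The change from block 10 to block 5 fell in the uncovered gap of 16 nt. Stretches that cross blocks were not rare, since 160 of the 1365 stretches with at least 2 clusters (11.7%) did so.

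The blocks also differed in how often reads shared a leftmost base. In block 5, 217 of 405 reads repeated a leftmost base that another read of the same strand already had, whereas in block 2, 0 of 23 reads did so. Block 2 has only 8 clusters of at most 4 reads. The count was also 0 in block 1, of 10007 reads with clusters of up to 103, and in block 3, of 1037 reads with clusters of up to 32. In block 4 it was 16313 of 48064. These zeros hold for the leftmost base only. Minus-strand reads that repeated a rightmost base, their 5′ end, numbered 369 in block 1, 1 in block 2 and 12 in block 3. They numbered 7182 in block 4 and 192 in block 5. Library shares and ranks given here pool all blocks, and whether the blocks had been processed differently was not tested. On the minus strand the leftmost base is the 3′ end of the read, and on the plus strand it is the 5′ end. With 1 read kept per leftmost base and strand throughout the file, 179 reads were left in the stretch and 16 in the rest of Chn1, so that the stretch held 91.8% (exact 95% interval 87.0 to 95.2) in place of 96.1%. Chn1 then made up 0.415% of the library, and the stretch was the 13th of 7297. Both values set minus-strand reads thinned by 3′ end beside plus-strand reads thinned by 5′ end. This setting was chosen after the data were seen.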

How the data were processed

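Aligned reads were deposited by the authors as 1 line per read, with first base, last base, strand and the base 1 upstream of the 5′ end, used as the crosslink position (this held in all 64820 anti-Rbfox1 and 569 anti-Flag reads). Bowtie and the mm9 build were used, per the submitters' processing notes. The sources used here give no version, mismatch setting, filter or step against PCR copies. No pair of reads shared start, end and strand, so reads per position count reads that are unique by coordinates. How these relate to molecules is not given, so they cannot be taken as counts of molecules. Clusters, stretches, blocks and exact Clopper-Pearson 95% intervals were computed with scipy 1.17.1, pandas 2.3.3 and numpy 2.4.6 under Python 3.11.15; matplotlib 3.10.9 drew the plots. Clustering was tested on simulated clusters, with crosslinks inside each closer than the joining distance and wide gaps between clusters. Such a test checks the code and cannot bear on the choice of joining distance. Intervals and the limit of 3 counts cover counting error only. Groups followed the antibody label. With 1 library per antibody no test was made. Motif letters came from GENCODE M21 transcripts on GRCm38. The gene, its stretch and the measures were chosen with earlier results of these data known. The stretches named beside Chn1 were the 3 next above and the 3 next below it in reads. Alternatives covered the unit counted, read length, near-identical reads, blocks, borders, joining distance and 1 read per leftmost base.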

Additional observations from a re-analysis of the deposited data

How the results depend on the processing

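Of 24 alternative settings, 10 left the value within its interval or within 1.5 times a count, and 14 moved it. Those on 1 read per leftmost base, and those on the stretch reads held by its highest cluster, were chosen after the data were seen. The Chn1 share of the library, 0.634%, was 0.447% by distinct positions, 0.415% with 1 read per leftmost base and 95.3% within the block of most Chn1 reads, where the base is 405 reads by construction. The share of Chn1 reads in the deep stretch, 96.1%, was 92.99% by positions, 91.8% with 1 read per leftmost base and 100% within that block, which holds no other Chn1 reads. The share in the highest cluster, 72.5%, was 46.2% when crosslinks were joined within 10 nt and 90.5% within 50 nt, which split or extend the cluster by construction, 66.8% by positions and 40% with 1 read per leftmost base, where thinner reads also split the cluster. The 9 clusters were 12 when joined within 10 nt, 7 within 50 nt and 4 with at least 5 reads each. The cause of the lower share by positions was not tested. No paired analysis was possible because there was a single library per antibody. The 569 control reads limit any comparison with the control.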

Other observations

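The 19 reads of block 5 outside Chn1 formed 4 clusters, with 2 and 6 reads on the minus strand of chromosome 11, 6 on the plus strand of chromosome 15 and 5 on the plus strand of the mitochondrial chromosome. A field of the read names was taken as the tile number. Its 16 lowest values over both libraries held 80.0% of the reads of the Chn1 stretch (exact 95% interval 75.7 to 83.8). They held 81.3% of the anti-Rbfox1 library (81.0 to 81.6), against 54.8% of the anti-Flag library (50.6 to 59.0). Whether the libraries shared a sequencing lane was not examined.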
